A study of Mus musculus with 12 samples.

Results

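Genes for ribosomal proteins and translation factors were followed in the lung of A/J mice, an inbred strain used in lung tumour research. The members were the probe sets named for a single gene whose symbol begins with Rpl, Rps, Mrpl or Mrps and a digit, or with Rplp, Rpsa, Eif or Eef, without the Rps6k kinases and the sex-linked Eif2s3x and Eif2s3y. This gave 189 of 12422 probe sets and 143 of 8251 genes, chosen by name and not by any measured value. They were treated as 3 classes: 35 genes of the cytosolic ribosome (49 probe sets), 61 of the mitochondrial ribosome (76 probe sets) and 47 translation factors or their regulators (64 probe sets). A further 45 probe sets carry several gene symbols that include such a gene, among them those of Rpl3 and Rps6, and were left out.

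Total RNA of lung tissue from control mice that had received saline was measured on Affymetrix MG_U74Av2 arrays, 1 array a sample, 12 in all. Per the labels, AJ1, AJ2, AJ4, LZ2 and LZ3 were taken 24 to 26 weeks after the injection, and LZ22 to LZ25 and LZ61 to LZ63 were taken 42 weeks after it. No allele, further treatment or age at injection is given, and nothing in the labels says that the samples are separate animals. The p-values therefore measure only the spread between these samples, which may be technical. The title prefixes AJ and LZ and the number ranges are not explained either, and each of the 4 ranges was hybridised and scanned on a day of its own, so range and run day cannot be told apart.

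The cytosolic ribosome, with a small and a large subunit, translates nuclear messages, and its protein genes are among the most actively transcribed in any cell. The mitochondrial ribosome has its own set of nuclear-encoded proteins and makes only the few respiratory chain subunits that mitochondrial DNA encodes. Initiation factors load the message and the initiator tRNA on the small subunit, elongation factors drive the ribosome along the message, and regulators such as the eIF2 kinases and the eIF4E-binding proteins slow initiation under stress or low nutrient supply. Messages for cytosolic ribosomal proteins and several elongation factors begin with a pyrimidine tract, through which the kinase mTOR and the protein LARP1 control their translation.

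Promoter sequence from RefSeq (GRCm38.p6), 250 bases before to 50 bases after each annotated start, was at hand for 121 of the 143 genes, in 151 windows. The letters CTTTC, a short form of that tract, were searched on the gene's strand within 10 bases either side of the start, and lay there in 6 of 37 windows of cytosolic ribosomal proteins (16.2%), in 2 of 54 of factors (3.70%), in 0 of 60 of mitochondrial ribosomal proteins and in 2.44% of all 32851 windows. CTTTT lay there in 0, 0 and 1 of these windows and in 2.03% of all. CCGGAAG, the core of the site for ETS factors, was searched on both strands of the whole window and found in 12 of 37 windows of cytosolic ribosomal proteins (32.4%), 19 of 60 of mitochondrial ones (31.7%) and 17 of 54 of factors (31.5%), against 8.86% of all windows. AAGATGG, the core of the site for YY1, was found on either strand in 9 of 37 (24.3%), 11 of 60 (18.3%) and 4 of 54 (7.41%), against 6.34% of all. CCGGAAG and AAGATGG share 3 letters and can overlap, which they did in 0 member windows. A match is a description of the letters, not of a binding site.

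The 80 bases from 60 before to 20 after the start are shown, on the gene's strand, for members that carry these letters and for Rps28, the cytosolic ribosomal protein with the smallest p between the AJ and LZ arrays below, which carries none of them. Capitals mark CTTTC within 10 bases of the start, CTTTT at the same place in Mrpl3, and CCGGAAG or its reverse complement CTTCCGG. Rpl19 has another annotated start (stretch chr11:98026864-98026943, not shown), whose window carries none of these letters. The stretches are Rps10 (chr17:27635225-27635304, minus strand), Rps27 (chr3:90213629-90213708, minus strand), Rpl7a (chr2:26910747-26910826, plus strand), Rps3a1 (chr3:86142649-86142728, minus strand), Rpl19 (chr11:98026650-98026729, plus strand), Mrpl3 (chr9:105053208-105053287, plus strand) and Rps28 (chr17:33824543-33824622, minus strand).
Rps10: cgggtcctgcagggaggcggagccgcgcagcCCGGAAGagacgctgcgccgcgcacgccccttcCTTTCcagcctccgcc
Rps27: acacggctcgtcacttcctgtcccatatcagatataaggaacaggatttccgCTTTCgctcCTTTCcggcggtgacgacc
Rpl7a: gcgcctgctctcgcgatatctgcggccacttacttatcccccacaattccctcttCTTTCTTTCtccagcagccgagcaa
Rps3a1: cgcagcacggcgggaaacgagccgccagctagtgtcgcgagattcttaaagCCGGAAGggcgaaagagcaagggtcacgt
Rpl19: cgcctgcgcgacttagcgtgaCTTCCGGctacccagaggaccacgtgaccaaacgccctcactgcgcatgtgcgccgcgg
Mrpl3: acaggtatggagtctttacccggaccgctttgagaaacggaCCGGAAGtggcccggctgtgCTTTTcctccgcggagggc
Rps28: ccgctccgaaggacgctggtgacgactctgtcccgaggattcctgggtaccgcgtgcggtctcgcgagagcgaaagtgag

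Values are MAS5 signals, a brightness per probe set that had been scaled before deposit to a trimmed mean between 500.25 and 500.30 on every array. The AJ arrays stood apart at the bright end: their highest signal was 19066 to 21497, against 29121 to 43011 on the 9 LZ arrays, and their 99th percentile was 7427 to 7768 against 8665 to 9546. Lung markers such as the surfactant gene Sftpc (18314 to 40557.5) and the club cell gene Scgb1a1 (16227 to 34487.5) were bright on every array, while Sftpd read 21 to 78.3. LZ22 and LZ24 read 6.6 and 45.3 for the atrial myosin gene Myh6, against 732 to 4335 on the others, and LZ63 read 20112 for the skeletal actin gene Acta1, against 8.6 to 481.1.

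Of the 189 member probe sets, 134 (118 genes) were tested: 27 of 49 cytosolic, 63 of 76 mitochondrial and 44 of 64 factor probe sets. The other 55 had a mean log2 signal that corresponds to under 108 (the 40th percentile over the array). Just outside were the dimmest probe set of Rps28 (97.6) and Mrpl55 (101), and just inside Eef1b2 (108.4) and Mrps22 (109.1). Among the genes left out for this reason were 10 of the cytosolic ribosome, Rpl32, Rpl35a, Rpl38, Rpl39, Rpl39l, Rps13, Rps14, Rps15, Rps20 and Rps27l, whose 11 probe sets read 2.7 to 140.3 on the 12 arrays. Most of these are core components of the ribosome, and the brightness of a probe set is no measure of the level of its transcript beside others. The 3 probe sets of Rps28 alone read 11562 to 24223, 9221 to 18871 and 45.9 to 164.9. The 9 factors left out were Eef1g, Eef2k, Eif2ak2, Eif2s2, Eif3f, Eif4e, Eif4enif1, Eif4h and Eif5a, and the 6 mitochondrial ones were Mrpl14, Mrpl42, Mrpl49, Mrpl55, Mrps5 and Mrps16. No probe set of a single gene stood for Rpl3, Rpl3l, Rps6, Rpl22l1, Eif2s1 or Eif4g1.

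With that limit on what brightness means, the classes lay in different parts of the scale. The brightest tested probe set of a gene had a mean signal over 10000 for 12 of 25 cytosolic ribosomal proteins, 0 of 55 mitochondrial ones, 1 of 38 factors (Eef1a1) and 62 of all 5731 genes tested. The brightest were Rpl41, the smallest protein of the large subunit, at 16723 to 35905, Rps24 at 12848 to 26320 and Rps28 at 11562 to 24223. In the mitochondrial class, Mrpl18 reached 3084, Mrpl52 2676 and Mrpl4 2013. Array-to-array spread was small in all 3 classes, with a median SD (log2) over the 12 arrays of 0.23 for cytosolic, 0.20 for mitochondrial and 0.22 for factor genes, against 0.26 for all genes tested. The steadiest cytosolic gene, Rpl7a, read 6631 to 8323 with an SD of 0.10, while Rps4l, a copy of Rps4x, reached 0.39. Eef1b2, near the filter at 37.5 to 180, had an SD of 0.62, and the elongation factor gene Eef1a2 one of 1.46. Of 14 genes with over 1 tested probe set, 6 had probe sets of opposite sign between the time points.

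The question of the main comparison was which members differ between 42 weeks and 24 to 26 weeks after the injection. No member passed the test (limma, 5% false discovery over all 7453 probe sets tested), where 6 probe sets in all, or 0.0805%, did (0.0268% higher and 0.0537% lower). At an unadjusted p under 0.05 there were 8 of 27 cytosolic (29.6%), 7 of 63 mitochondrial (11.1%) and 7 of 44 factor probe sets (15.9%), against 14.7% of all probe sets. No member passed after quantile normalization either, nor with run day as a random block, where the class medians were 0.14, 0.03 and -0.08. In these tissue extracts a lower signal from fewer cells of a type and from less RNA per cell cannot be told apart.

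Cytosolic ribosomal proteins read higher at 42 weeks in 20 of 25 genes, with a median log2 difference of 0.16 against -0.04 over all genes tested. Other bright probe sets read higher too. With a mean signal over 10000, 13 of 13 cytosolic probe sets were positive (median 0.31), and 81 of 82 of no member class (median 0.21). Between 3000 and 10000, 7 of 7 cytosolic ones were positive (median 0.13), and 235 of 391 of no member class (median 0.04). Large subunit genes had a median of 0.15 (10 of 12 positive) and small subunit genes one of 0.16 (10 of 13 positive). After quantile normalization, which gives every array the same distribution of signals, the median of the class was -0.01 with 12 of 25 genes positive. A block for the title prefix, which leaves 42 weeks against LZ2 and LZ3, gave 0.0014. Against the AJ arrays alone at 24 to 26 weeks, 10 cytosolic probe sets passed the test. How many of all probe sets passed in that fit is not given here, so the count is not set against them.

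The array medians show where this difference lay. Relative to each gene's own median, the cytosolic class had an array median of -0.28 to -0.17 (log2) on the AJ arrays, 0.00 to 0.10 on LZ2 and LZ3, -0.01 to 0.04 on LZ22 to LZ25 and -0.02 to 0.19 on LZ61 to LZ63. Only the 3 AJ arrays lay apart from the others. After quantile normalization all 12 arrays lay between -0.03 and 0.03.

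**Figure D1:**
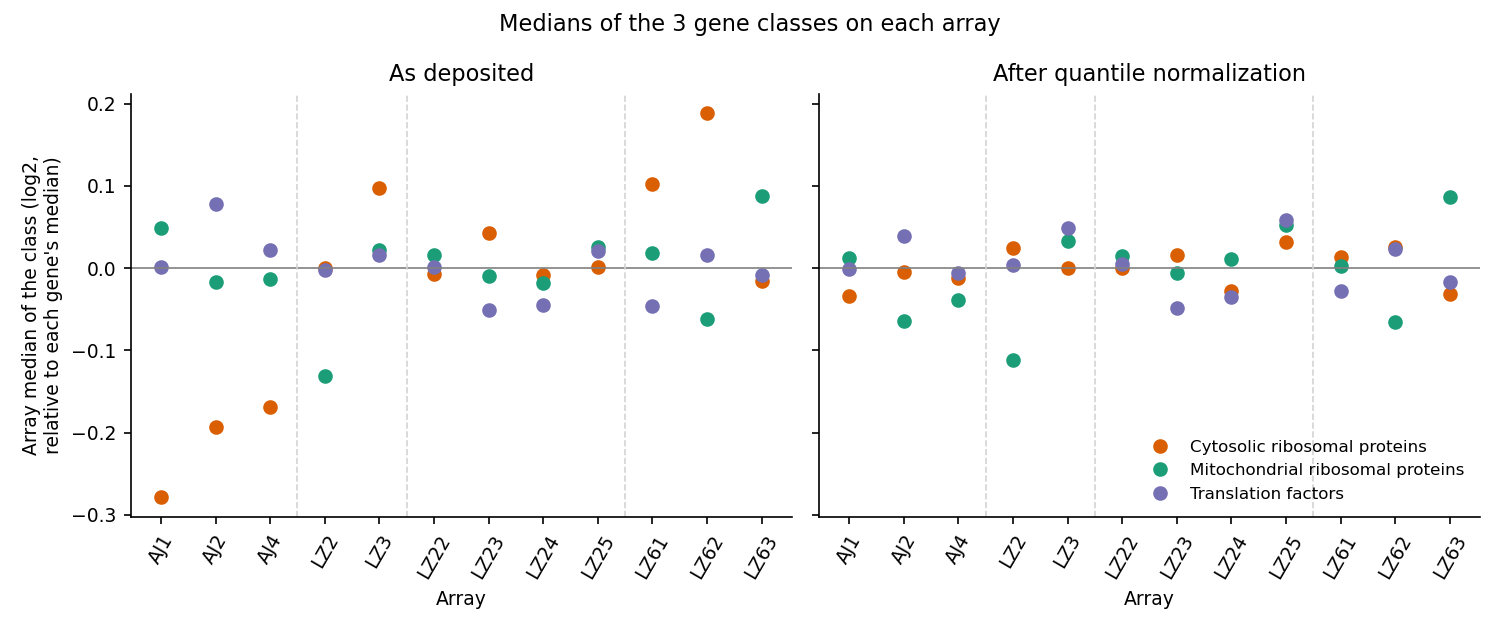
Points give, for each of the 12 arrays (x axis), the median over the tested genes of a class of the log2 signal relative to the gene's median over the arrays (y axis), as deposited on the left and after quantile normalization on the right. Dashed lines separate the 4 number ranges. Cytosolic ribosomal proteins lie at -0.28 to -0.17 on the AJ arrays as deposited and between -0.03 and 0.03 on all arrays after quantile normalization.

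The cytosolic members with the smallest p were Rpl19, Rps28 and Rps3, which helps form the channel where the message enters the small subunit. Rpl19 read 9238, 9613, 9110.5, 12151 and 12955 on AJ1, AJ2, AJ4, LZ2 and LZ3, and 11205 to 17651 with a median of 12696 at 42 weeks (log2 difference 0.37, 95% interval 0.10 to 0.65, adjusted p = 0.22). Rps28 read 12004, 12759.6 and 11562 on the AJ arrays, 18765 and 21770.1 on LZ2 and LZ3, and 17743 to 24223 with a median of 19661 at 42 weeks (0.43, interval 0.11 to 0.75, adjusted p = 0.23). In both genes the AJ arrays were below every other array and LZ2 and LZ3 lay among the arrays at 42 weeks. Rps3 was alike, with 8547 to 9140.1 on the AJ arrays, 12509.5 and 13523 on LZ2 and LZ3 and 12021 to 15812 at 42 weeks (0.35, adjusted p = 0.25).

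Among ribosomal proteins often named for other reasons, Rplp0 and Rpsa were again lowest on the 3 AJ arrays, and Rpl13a was not. Rplp0, the base of the ribosomal stalk and often used to normalize measurements, read 13174 ± 1768 (SD, n = 5) at 24 to 26 weeks and 15574 ± 1323 (SD, n = 7) at 42 weeks (0.25, adjusted p = 0.28). Rpsa, a small subunit protein also known as a laminin receptor, read 2532 ± 198 and 2796 ± 85.4 (0.15, adjusted p = 0.40), and Rpl13a read 670 ± 149 and 817 ± 102 (0.31, adjusted p = 0.34). Rps4l went the other way, from 332 ± 70.4 to 255 ± 56.6 (-0.39, adjusted p = 0.36). None of these passed the test.

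Mitochondrial ribosomal proteins had a median difference of 0.03 (36 of 55 genes positive), or 0.07 after quantile normalization (40 of 55). The large subunit had 27 of 36 genes positive with a median of 0.05, and the small subunit 9 of 19 with a median of -0.01. Mrps10, a small subunit protein, read 188.5, 141.1, 128.3, 101.7 and 137.9 at 24 to 26 weeks and 169.7 to 216.8 with a median of 189.5 at 42 weeks (0.48, interval 0.14 to 0.81, adjusted p = 0.20). The groups overlapped only through AJ1. The dimmer of the 2 tested probe sets of Mrpl50 read 124.6 to 176.5 and then 102.7 to 124.9 (-0.41, adjusted p = 0.23), while the brighter one had a difference of -0.01. For Mrps18a the 4 tested probe sets differed by 0.04 to 0.47, so the value of 0.47 (adjusted p = 0.24) rests on 1 of them.

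Translation factors had a median of -0.07 with 13 of 38 genes positive, the same count after quantile normalization (median -0.06). Initiation factors read lower at 42 weeks in 20 of 27 genes (median -0.07), elongation factors higher in 4 of 5 (median 0.26) and regulators lower in 4 of 6 (median -0.17). After quantile normalization these medians were -0.07, 0.14 (3 of 5 higher) and -0.14. The 5 elongation genes include Eef1b2, near the filter, and Eef1a2, whose interval between the time points is wide and spans 0 (below). Within initiation, eIF3, the large scaffold on the small subunit, had 3 of 9 tested genes positive (median -0.04), and eIF2B, the exchange factor for eIF2, had 1 of 4 (median -0.07). The eIF4 group, which reads the cap and unwinds the message, had 1 of 6 positive (median -0.18). Blocking on the prefix left a median of -0.0036 for the whole class.

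The factor with the smallest p was Eif5b, the GTPase that joins the ribosomal subunits at the start codon. Its dimmer probe set read 215.1, 189.7, 168.1, 201.1 and 186.4 at 24 to 26 weeks and 223.9 to 359.9 with a median of 287.8 at 42 weeks (0.59, interval 0.30 to 0.88, adjusted p = 0.082). It was the only member whose groups did not overlap, where 1.5% of all probe sets did not (0.322% higher and 1.18% lower). The brighter Eif5b probe set read 341.1 to 520.4 and then 362.1 to 481 (-0.10, adjusted p = 0.76), so the probe sets of this gene disagree. With run day as a random block, the adjusted p of the dimmer one was 0.42. Eif4g3, a scaffold that holds the cap-binding complex together, read 759.4 to 934.5 and then 571.6 to 808.2 (-0.36, adjusted p = 0.19). Eif3m read 1490.5 to 1933 and then 1145.5 to 1500 (-0.29, adjusted p = 0.23). In both genes 1 or more arrays at 42 weeks lay among those at 24 to 26 weeks. Among the regulators, the dimmer tested probe set of Eif4ebp2, which binds eIF4E, had the widest difference of any member (1.10, adjusted p = 0.36), with 91.9 to 198.4 on the AJ arrays, 772 and 775.5 on LZ2 and LZ3 and 400.3 to 816.4 at 42 weeks. The eIF2 kinases had a median of -0.23 over 3 tested genes. Eif4ebp1, a relative of Eif4ebp2, read 374 ± 45.7 (SD, n = 5) and 349.7 ± 62.8 (SD, n = 7) with an adjusted p of 0.77, and Eif6, which keeps the large subunit from joining too early, 813 ± 87 and 755 ± 113 with one of 0.70. Eif4g2, a scaffold that does not bind eIF4E, read 512 ± 61.4 and 489 ± 82.4 (adjusted p = 0.84).

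**Figure D2:**
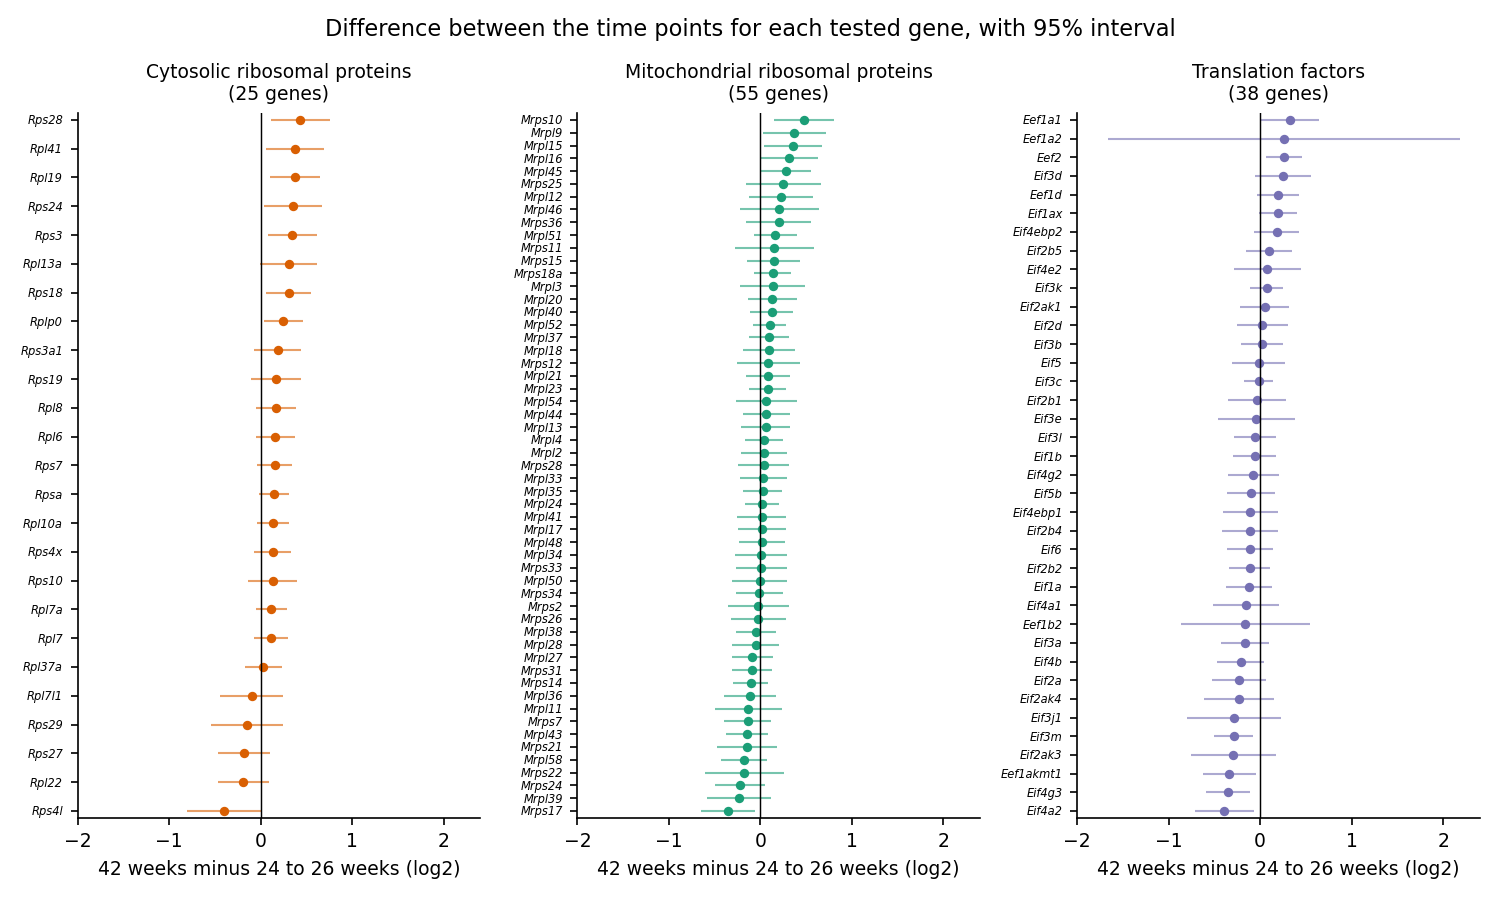
Each point is the log2 difference of a gene between 42 weeks (n = 7) and 24 to 26 weeks (n = 5), on its brightest tested probe set, and each line its 95% interval (limma). Panels hold 25 cytosolic, 55 mitochondrial and 38 factor genes, of which 20, 36 and 13 lie above 0, and none passed the test.

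Within 24 to 26 weeks, the AJ arrays were compared with LZ2 and LZ3, in a model with 1 group for each number range. This comparison has the same treatment and the same label of 24 to 26 weeks on both sides. The prefix, the run day, the time within that interval and anything else that goes with them cannot be told apart. It called 13 member probe sets: 7 of 27 cytosolic, all lower on the AJ arrays, 1 of 63 mitochondrial, higher, and 5 of 44 factor probe sets, 3 higher and 2 lower. Of all probe sets, 2.5% were called, 1.13% higher and 1.37% lower. The groups did not overlap in 17 cytosolic probe sets (16 lower), 27 mitochondrial and 22 factor probe sets, against 41.1% of all probe sets (22.9% higher and 18.1% lower). Other lists moved with the same split. The summed signal of the interferon genes was 20877 to 24497 on the AJ arrays and 9337 to 18560.1 on the LZ arrays. That of the lung markers was 77975 to 83079 and 94694 to 142273, and that of the red blood cell genes 30135 to 34990.5 and 37389 to 74599.9. Between the AJ arrays and LZ2 and LZ3, the median log2 differences of these lists were 0.68, -0.46 and -0.45. After quantile normalization they were 0.63, -0.07 and -0.13. Of 2 signs of RNA quality, 1 split the arrays too: the actin 3'/5' signal ratio was 1.24 to 1.28 on the AJ arrays and at most 1.19 on the LZ arrays. The Gapdh 3'/5' ratio did not, at 0.767 to 0.805 on the AJ arrays and 0.766 to 1.04 on the LZ arrays. Their part in the members' differences was not tested.

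The 7 cytosolic calls were the 2 bright probe sets of Rps28, and Rps24, Rps3, Rps3a1 and Rps18 of the small and Rpl8 of the large subunit. Rps28 read 12109 ± 605 (SD, n = 3) on the AJ arrays and 20268 ± 2125 (SD, n = 2) on LZ2 and LZ3, 1.67-fold lower (log2 difference -0.74, SE 0.12, adjusted p = 0.0098). Rps24 read 13203, 14386 and 12848 against 19973 and 22733 (-0.66, adjusted p = 0.018), Rps3a1 12414, 12610.2 and 11638 against 16267 and 18930.4 (-0.52, adjusted p = 0.020) and Rps3 8547, 9140.1 and 9026 against 12509.5 and 13523 (-0.55, adjusted p = 0.031). Each of these genes was also brighter on all 7 arrays at 42 weeks than on the AJ arrays. Rps18 (-0.49) and Rpl8 (-0.44) both had an adjusted p of 0.027, and the other Rps28 probe set had one of 0.049 (-0.63). The array design marks the probe set of Rpl41 and the brightest one of Rps28 as shared by a family of related sequences, and that of Rps24 as chosen under relaxed probe selection rules. Processed copies of ribosomal protein genes are common, so such readings may include other transcripts.

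Over the class the median difference was -0.20, with 21 of 25 genes negative, against 0.04 over all genes tested. Brightness moved with this difference. Among the 96 tested probe sets with a mean signal over 10000, 93 were lower on the AJ arrays with a median of -0.41. The 13 cytosolic ribosomal probe sets there were all lower (median -0.49), and of the 82 that belong to no member class 79 were lower (median -0.40). Between 3000 and 10000, the 7 cytosolic probe sets had a median of -0.09 and the 391 of no member class one of -0.17. After quantile normalization the medians over 10000 were -0.06 for cytosolic and 0.01 for other probe sets. The class median was 0.01 with 13 of 25 genes positive, and 0 cytosolic probe sets were called. Giving every array the same distribution takes out a shift shared by the brightest probe sets whatever its origin. The origin of the difference was not tested.

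**Figure D3:**
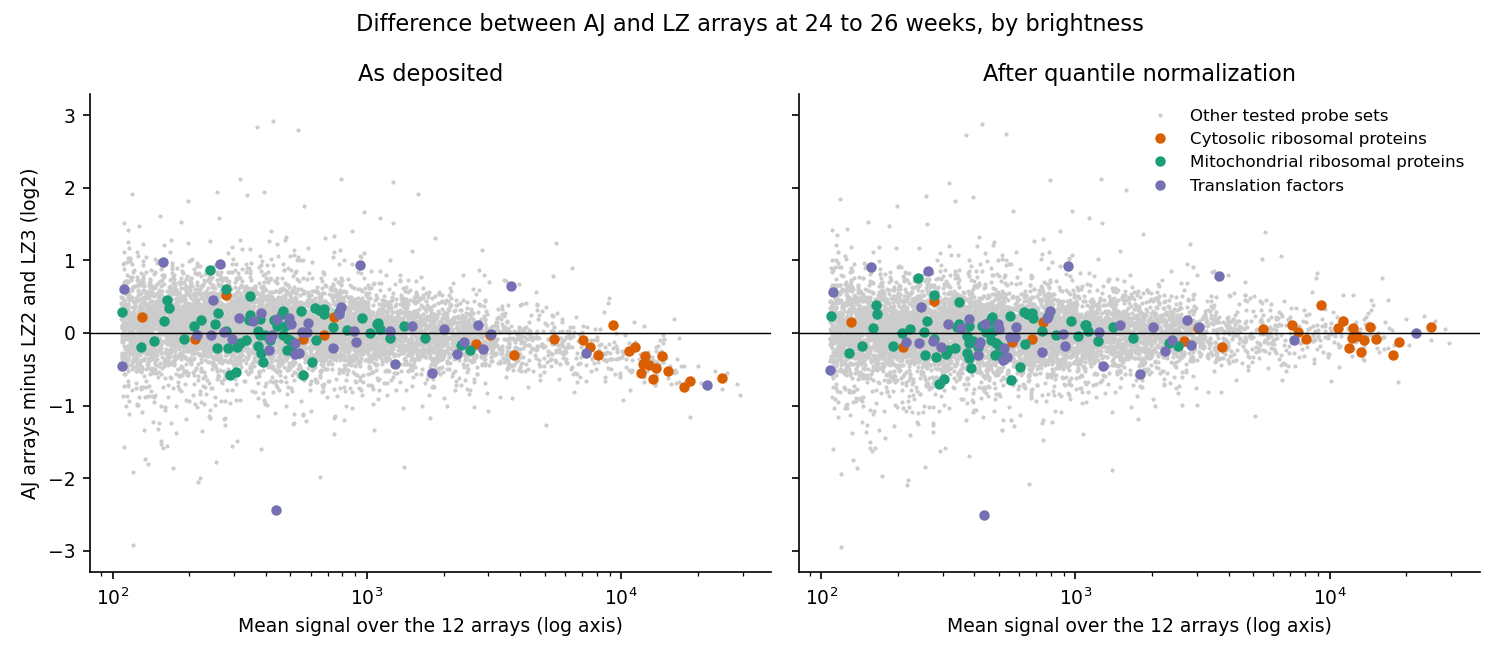
Each point is a tested probe set, placed by its mean signal over the 12 arrays (x axis, log scale) and its log2 difference between the AJ arrays (n = 3) and LZ2 and LZ3 (n = 2) at 24 to 26 weeks (y axis), as deposited on the left and after quantile normalization on the right. As deposited, the bright probe sets bend downward, cytosolic ribosomal proteins (13 over 10000, median -0.49) together with other probe sets (82, median -0.40). On the right the bend is gone, with medians of -0.06 and 0.01. Quantile normalization removes such a bend whatever its origin.

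Elongation factors lay low on the AJ arrays as well, with all 5 tested genes negative (median -0.43, or -0.12 with all 5 negative after quantile normalization). Eef1a1, which carries aminoacyl-tRNA to the ribosome, read 15600, 16499.7 and 15016 on the AJ arrays, 22963 and 28770.5 on LZ2 and LZ3 and 22057 to 28188 at 42 weeks (-0.71, SE 0.12, adjusted p = 0.012). After quantile normalization its difference was -0.0058 (adjusted p = 0.98). Eef2, the translocase, read 6051 ± 319 and 7310.4 ± 121 (-0.27, adjusted p = 0.22), or -0.10 after quantile normalization. Eef1d, a subunit of the exchange factor that recharges eEF1A, read 1055 ± 67.2 and 1417 ± 21 (-0.43, adjusted p = 0.074) and kept its size after quantile normalization (-0.45).

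The largest difference of any member was in Eif4ebp2, which binds the cap-binding protein eIF4E and holds back initiation until mTOR phosphorylates it. The dimmer of its 2 tested probe sets read 157.6, 91.9 and 198.4 on the AJ arrays and 772 and 775.5 on LZ2 and LZ3, 5.44-fold lower (-2.44, interval -3.22 to -1.67, adjusted p = 0.0089). All 9 LZ arrays, at 400.3 to 816.4, lay above the 3 AJ arrays. The brighter Eif4ebp2 probe set read 2119.7, 2176.5 and 2175.3 against 2412 and 2297 (-0.13, adjusted p = 0.64), so the call rests on the dimmer probe set. It was kept in 19 of 21 alternatives, with -2.50 and an adjusted p of 0.0084 after quantile normalization.

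The 3 other called factors were higher on the AJ arrays. The eIF3 subunit gene Eif3e read 351.1, 325.4 and 371.5 against 194.4 and 168.4 (0.95, adjusted p = 0.019), and 201.7 to 293.4 at 42 weeks, between the AJ and the LZ arrays of the earlier time. Eif2ak3, which encodes PERK, the eIF2 kinase of endoplasmic reticulum stress, read 195.7, 253.2 and 253.2 against 119.1 and 116.2 (0.98, adjusted p = 0.044), and 108.2 to 169.6 at 42 weeks. Eif3j1, a loosely bound eIF3 subunit, read 1355, 1517 and 1240.2 against 722.1 and 699 (0.94, adjusted p = 0.048). After quantile normalization the differences were 0.86 for Eif3e (adjusted p = 0.037), 0.90 for Eif2ak3 (adjusted p = 0.052) and 0.92 for Eif3j1 (adjusted p = 0.059). Other kinases of eIF2 did not pass: Eif2ak4 (GCN2, which senses uncharged tRNA) read 145 ± 9.84 and 94.8 ± 10.7 (0.61, adjusted p = 0.18), and Eif2ak1 (the haem-regulated kinase) 492 ± 49.6 and 542 ± 24.9 (-0.14, adjusted p = 0.72).

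The helicase gene Eif4a2 read 5157, 4753.5 and 5608 on the AJ arrays against 3733 and 2893 on LZ2 and LZ3 (0.65, adjusted p = 0.068), and 6 of its 21 alternatives called it, such as quantile normalization (0.78, adjusted p = 0.0497) or array weights (0.60, adjusted p = 0.024). Quantile normalization called 3 member probe sets, 2 higher (Eif3e and Eif4a2) and 1 lower (Eif4ebp2), in place of 4 higher and 9 lower. Of all 7453 probe sets, it called 63 higher and 70 lower. Eif4a1, a near relative of Eif4a2, read 443 ± 76.5 and 363 ± 37 (0.28, adjusted p = 0.64).

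The mitochondrial call was Mrps11, a small subunit protein, which read 259.1, 269.4 and 341.3 on the AJ arrays against 139.2 and 180.1 on LZ2 and LZ3 (0.86, adjusted p = 0.045), and 196.3 to 292.1 at 42 weeks. LZ2 and LZ3 were the lowest arrays of all. Its adjusted p was 0.065 after quantile normalization, and the call was kept in 8 of 20 alternatives. Mrpl36 read 420 ± 22.4 and 294 ± 3.25 (0.51, adjusted p = 0.090) and Mrpl16 421 ± 65.2 and 629.55 ± 94.8 (-0.59, adjusted p = 0.10). Over the class the median was 0.06, with 30 of 55 genes positive.

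The calls of this comparison rest on few arrays. Of the 13 calls, 7 were left without AJ1, 4 without AJ2, 1 without AJ4, 2 without LZ2 and 0 without LZ3. Cytosolic calls numbered 3, 2, 0, 1 and 0 in that order, and factor calls 4, 2, 1, 1 and 0, or 3 without LZ23, LZ24 or LZ61. The mitochondrial call was lost without any 1 array other than LZ23, LZ62 and LZ63.

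**Figure D4:**
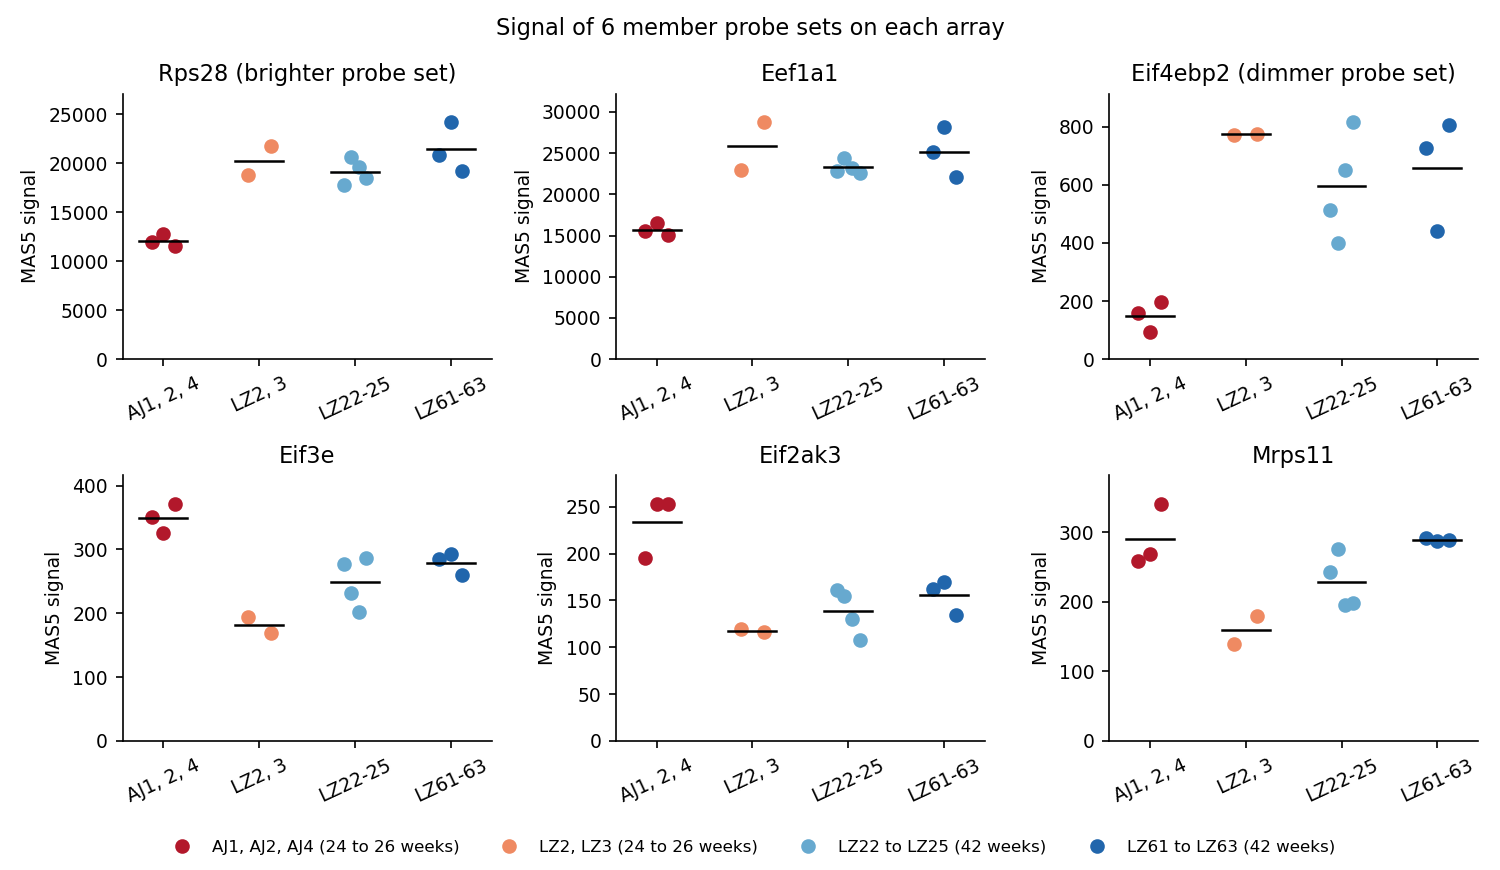
Points are the MAS5 signals of 6 member probe sets on each of the 12 arrays, by number range, and black lines the means of a range. Rps28, Eef1a1 and Eif4ebp2 are lowest on the 3 AJ arrays, with all 9 LZ arrays above them, whereas Eif3e and Eif2ak3 are highest there and Mrps11 is lowest on LZ2 and LZ3.

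Within 42 weeks, LZ61 to LZ63 were compared with LZ22 to LZ25. No member passed the test (limma), where 1.5% of all probe sets did (0.416% higher and 1.09% lower). At an unadjusted p under 0.05 there were 6 of 27 cytosolic, 5 of 63 mitochondrial and 9 of 44 factor probe sets, against 19.8% of all. The medians were 0.07 for cytosolic, -0.00496 for mitochondrial and 0.01 for factor genes, against -0.02 over all genes.

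Rps10, of the small subunit, read 8882, 9600.6 and 7879 on LZ61 to LZ63 and 6506, 6539.7, 6493 and 6301 on LZ22 to LZ25 (0.44, interval 0.19 to 0.68, adjusted p = 0.068). The ranges did not overlap, as in 16% of all probe sets (6.45% higher and 9.53% lower) and in 3 of 27 cytosolic, 8 of 63 mitochondrial and 8 of 44 factor probe sets. Rpl6 went the other way, at 7770 ± 237 (SD, n = 3) and 9048 ± 678 (SD, n = 4) (-0.22, adjusted p = 0.19), and Rps27 read 676.9 to 796.3 against 478.3 to 720.8 (0.36, adjusted p = 0.21). Among mitochondrial proteins, 1 probe set of Mrpl45 read 411.6, 413.5 and 441.3 against 224.4 to 327.9 (0.56, adjusted p = 0.070), while the other had a difference of 0.28. Mrpl9 read 356 ± 23.3 and 507 ± 67.7 (-0.50, adjusted p = 0.094). Mrpl12, which also binds the mitochondrial RNA polymerase, read 506 ± 69.7 and 350.2 ± 62.3 (0.54, adjusted p = 0.11). Eif3l read 2497, 2513 and 2304 against 2931 to 3301 (-0.35, adjusted p = 0.066), and the brighter Eif4ebp2 probe set 2676, 2905 and 3304 against 2023 to 2406.5 (0.39, adjusted p = 0.068). Apart from Rps27, the ranges did not overlap in any of these members, and none of them passed the test. Eif3a, the factor with the next smallest p, did not pass either. Its difference was positive, at 0.28 to 0.49 with each array left out in turn. Of 9 tested eIF3 genes, 5 were positive and 4 negative.

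Eef1a2 varied more than any other member. It encodes the eEF1A form that replaces Eef1a1 in adult skeletal muscle, heart and neurons. It read 375.9, 358.1, 398.8, 286 and 513.9 on AJ1, AJ2, AJ4, LZ2 and LZ3. At 42 weeks it read 129.9, 428.9, 96.2 and 521.2 on LZ22 to LZ25 and 696, 349.8 and 6036 on LZ61 to LZ63. LZ63 was thus far above all other arrays, and LZ22 and LZ24 were the lowest, with LZ24 below the filter's signal of 108. The difference between the time points was 0.26 (interval -1.66 to 2.19, adjusted p = 0.93), and that between the ranges at 42 weeks 2.31 (adjusted p = 0.24).

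Many muscle markers, though not all, stood at their extremes on the same arrays. The summed signal of the skeletal muscle markers was 89216 on LZ63 and 1849 to 3575 on the other 11 arrays, and Acta1 was lowest on LZ22 (8.6) and LZ24 (13.2). Myh6 was likewise lowest on LZ22 (6.6) and LZ24 (45.3) and highest on LZ63 (4335). On LZ63, 3 of the 16 skeletal muscle markers stayed under 108: Ckm (85.1), Myh2 (6.8) and Myh4 (27.2). Ckm was highest on LZ24 (110) and LZ22 (98.9). Squamous epithelium markers stood out on LZ63 too, with a summed signal of 41414 against 808.5 to 1482.8 on the other arrays. The part of these markers in the readings of Eef1a2 was not tested. For Eef1a1, LZ63 was the lowest of the 9 LZ arrays (22057), while LZ22 (22809.7) and LZ24 (23209) lay inside the range of the remaining ones (22639 to 28770.5).

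**Figure D5:**
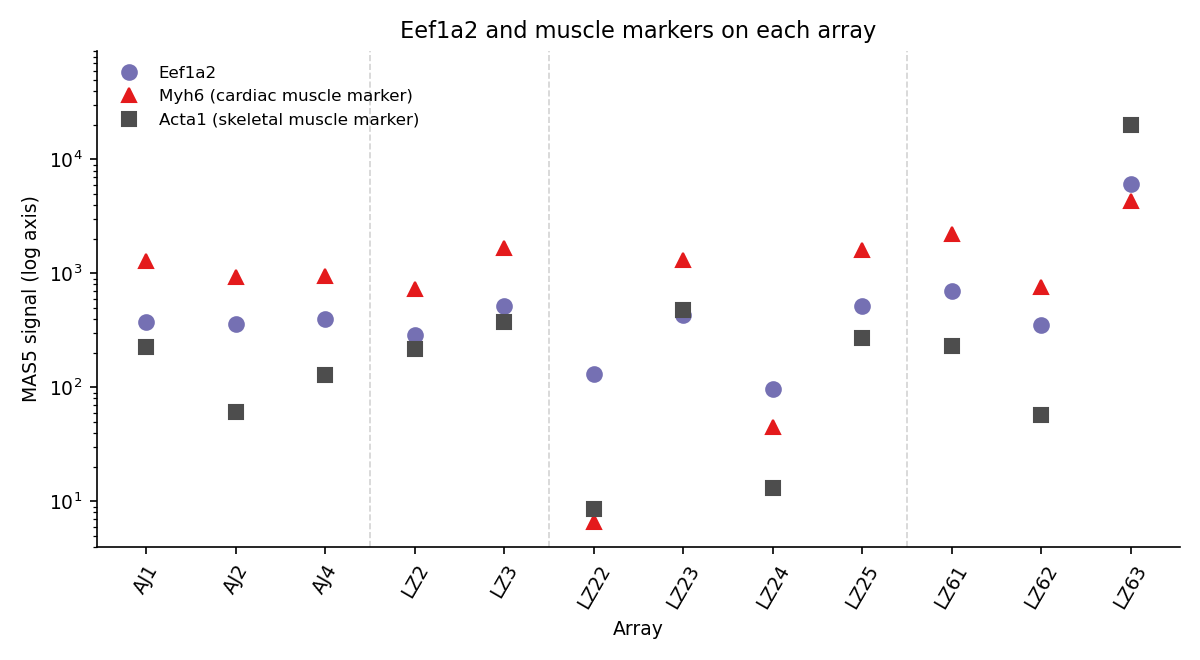
Points are the MAS5 signals (log axis) of Eef1a2, the cardiac muscle marker Myh6 and the skeletal muscle marker Acta1 on each of the 12 arrays, with dashed lines between the 4 number ranges. All 3 are highest on LZ63 (6036, 4335 and 20112) and lowest on LZ22 and LZ24.

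Other genes of the translation machinery were taken from lists outside the member rule. Of 43 tested ribosome biogenesis genes, only Rrp1b, a nucleolar protein, passed between the time points (296 ± 28.6 at 24 to 26 weeks and 165 ± 20.4 at 42 weeks, adjusted p = 0.012), with a list median of -0.01. Its adjusted p was 0.17 with run day as a random block, 0.26 with a block for the prefix and 0.061 without AJ2. Of 15 genes that act in mTOR signalling and translation control, 20 tRNA synthetases and 11 further mitochondrial translation genes, 0 passed in any of the 3 comparisons (limma, as deposited or after quantile normalization). Between the time points their medians were 0.05, 0.02 and -0.04, with 2, 3 and 4 genes at an unadjusted p under 0.05. Between the AJ arrays and LZ2 and LZ3 the medians were -0.20 (11 of 15 negative), 0.07 (6 of 20) and 0.07 (3 of 11). After quantile normalization those were -0.28, -0.0014 and -0.03. Between the ranges at 42 weeks the medians were 0.04, -0.01 and 0.08. Of 18 further elongation and termination genes, Tpt1, whose message also starts with a pyrimidine tract, was lower on the AJ arrays (14823 ± 731 against 23913 ± 2017, -0.69, adjusted p = 0.019), or -0.17 (adjusted p = 0.29) after quantile normalization. Its call was lost without any 1 of AJ1, AJ2, AJ4, LZ2 and LZ3 (adjusted p 0.053 to 0.20). Among 17 nuclear genes of oxidative phosphorylation, 16 were positive at 42 weeks (median 0.15), of which 0 passed the test and 3 had an unadjusted p under 0.05 (limma). In the same list, Uqcrc2, a complex III subunit, was higher on LZ61 to LZ63 than on LZ22 to LZ25 (0.57, adjusted p = 0.045), a call kept in 5 of 21 alternatives and lost without any 1 array but LZ62. The list's array medians were highest on LZ63 (0.54) and LZ61 (0.25) and lowest on LZ24 (-0.13), AJ4 (-0.11) and LZ22 (-0.07). The summed signal of the cardiac muscle markers was highest on LZ63 (54105) and LZ61 (28591) and lowest on LZ24 (3130) and LZ22 (3404). AJ4, at 13827, did not stand apart there. That of the fat markers was also highest on LZ63 (4375.5) and LZ61 (4231). Without LZ63 the median of the oxidative phosphorylation list between the time points was 0.075 with 13 of 17 positive. Without LZ22, LZ24 and LZ63 it was 0.13 with 15 of 17. Between the ranges the list's median was 0.31 with 15 of 17 positive. It was 0.21 with 13 of 17 without LZ63, and 0.063 with 12 of 17 without LZ22, LZ24 and LZ63. Medians of the cardiac muscle and fat lists were -0.72 and 0.17 between the time points, and 2.57 and 0.93 between the ranges. The part of the muscle and fat markers in these values was not tested.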

How the data were processed

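Total RNA of lung tissue was made into biotinylated cRNA and hybridised to Affymetrix MG_U74Av2 arrays, 1 for each of 12 samples, per the labels' protocols. The deposited intensities are MAS5 signals, per the submitters' processing notes; for the software version and the scaling target, the sources used here give nothing. The series table was used as deposited: 12488 probe sets, of which 66 are controls. Symbols come from the platform annotation: 10833 probe sets carry 1 gene symbol, 396 several and 1193 are not listed there. All 143 member genes matched RefSeq by Entrez ID, which also gave the promoters.

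Signals were taken to log2 with no pseudocount, since every signal was above 0. The 7453 probe sets whose mean log2 signal reached the 40th percentile were tested. A linear model was fitted to all of them with limma 3.58.1 (R 4.3.3, statmod 1.5.0, python 3.11.15; trended and robust variance), and p-values were adjusted by Benjamini-Hochberg, with a threshold of 0.05. The time comparison used the 2 time points without a block, and run day as a random block was an alternative (estimated correlation 0.227). The comparisons within a time point used the 4 number ranges as groups. A gene stands on its brightest tested probe set in medians and counts of genes, and calls are counted per probe set. The fits were tried on 10 simulated data sets for each comparison, with 200 changed probe sets in each. Of 1.5-fold changes, 62.8% were recovered between the time points, 22.4% between AJ and LZ titles and 37.3% between the ranges. For 2-fold changes these shares were 90.9%, 64.3% and 78.5%. False calls made up 4.99%, 6.07% and 5.48% of all calls. The simulated noise held only the spread within number ranges. The number of arrays limits the precision.

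Members named are those past the test, or the 3 with the smallest p of a class, with the brightest, the most variable and a short fixed set of well-known genes. Rps10, Rps27, Rpl7a, Rpl19, Mrpl3 and the other genes shown by sequence were chosen after their values were seen. The classes, gene lists and tests were chosen with earlier results of these data known. Alternatives covered quantile normalization, equal array medians, the filter, array weights, the moderation of the variance, blocks and each array left out.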

Additional observations from a re-analysis of the deposited data

Results flagged for a closer look

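Within a time point, 2 of the 108 sets of readings checked held an array far from the others, where about 1 in 20 sets does so by chance. The cytosolic ribosomal gene Rpl8 read 12330.9 on LZ63, the lowest value at 42 weeks, while the other 6 arrays of that time read 13345 to 13965. The mitochondrial ribosomal gene Mrpl46 read 97.8 on AJ4, the lowest value at 24 to 26 weeks, while the other 4 arrays of that time read 139.2 to 155.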

How the results depend on the processing

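Between the time points, the 0 calls held except with array weights or with the AJ arrays alone at 24 to 26 weeks. Array weights called 7 cytosolic, 2 mitochondrial and 5 factor probe sets, 14 in all. The AJ arrays alone gave 10, 1 and 7 calls, 18 in all. Counts in this section are not set against the share of all probe sets called under the same alternative. The cytosolic median was -0.0098 after quantile normalization and 0.0014 with a block for the prefix. The factor median was -0.025 with equal array medians, -0.0036 with the prefix block and -0.031 with LZ22 to LZ25 alone at 42 weeks. Leaving out each array in turn gave 0 calls, cytosolic medians of 0.12 to 0.19, mitochondrial ones of -0.00053 to 0.066 and factor ones of -0.10 to -0.038.

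Between AJ and LZ titles, cytosolic calls numbered 0 after quantile normalization, 1 without trend and robust moderation and 11 with array weights. Mitochondrial calls numbered 0 after quantile normalization, with no filter, with a 60th percentile filter or in a fit of these arrays alone, and 4 with array weights. Factor calls numbered 3 after quantile normalization, with no filter or with the 60th percentile filter, and 9 with array weights. All calls numbered 3, 6 and 24 with quantile normalization, without trend and robust moderation and with array weights. The cytosolic median was 0.0076 after quantile normalization, -0.29 with equal array medians and -0.28 with the 60th percentile filter. The mitochondrial median was -0.039 with equal array medians, and the factor median -0.074 with equal array medians, 0.060 with no filter and 0.067 with array weights. With 1 array left out, calls numbered 0 to 9 cytosolic, 0 to 1 mitochondrial, 0 to 7 factor and 0 to 17 in all, and medians ran from -0.25 to -0.18, -0.065 to 0.12 and 0.0022 to 0.084.

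Between the ranges at 42 weeks, equal array medians gave 1 mitochondrial and 1 factor call (2 in all) and array weights 1 cytosolic call (1 in all). With equal array medians the class medians were -0.0092, -0.083 and -0.070. Without LZ22, LZ24 and LZ63 they were 0.16 cytosolic and -0.065 mitochondrial, the 60th percentile filter gave -0.056 mitochondrial and array weights -0.044 factor. With 1 array left out, calls between the ranges were 0 and medians 0.028 to 0.13, -0.059 to 0.028 and -0.019 to 0.046. Run day as a random block changed no count between the time points. No called member changed sign under any alternative, and the cause of these shifts was not tested. No paired analysis was possible because the labels give the groups no shared replicate numbers.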
